A study of Homo sapiens with 6 samples.

Results

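The RBM-numbered genes are the human genes whose symbol is RBM, for RNA-binding motif protein, followed by a number and in some cases a letter, with *RBMX*, *RBMX2* and *RBMXL1* added by the same symbol rule. The rule used symbols only and no measured value, and it found 37 members among the 15917 genes of the deposited table. The study measured total RNA by sequencing in MDA-MB-231, an established human triple-negative breast cancer line of mesenchymal character. It holds 6 libraries in 3 groups of 2 biological replicates: cells with a control hairpin (shCTRL, genotype WT), and cells with either of 2 hairpins against *RBMS3* (shRBMS3-B3, genotype RBMS3 KD1, and shRBMS3-C3, genotype RBMS3 KD2). All 3 groups share the parental line and a hairpin construct, and the study's methods place hairpins in the puromycin-selectable pLKO.1 vector, and no group is described there as a single clone. *RBMS3* is an RNA-binding protein gene of a separate family, outside the symbol rule.

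The quantity described here is the mean normalized count of each gene, a read count scaled for library depth by the authors and averaged over libraries. The other measured columns of the table are the authors' own comparison of knockdown with control cells and were not used. Every value below is therefore the authors' mean of the cell line, with no value per library, no spread and no test, and no statement is made on how any of these genes responded to *RBMS3* knockdown. Which libraries entered the mean is not stated. Depth per library is unknown. The means ranged from 26.7 to 859682 over all 15917 genes, with a median of 364, and a gene with a mean under the lowest of these is not listed. The mesenchymal markers *VIM* (69336) and *CD44* (10047) had means above 99.9% and 98.5% of genes, whereas the epithelial markers *EPCAM* (107) and *CDH1* (31.6) lay in the lower part of the table and the estrogen receptor gene *ESR1* was not listed. Whether *RBMS3* itself was lowered by the hairpins cannot be read from a pooled mean.

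RBM proteins bind RNA, in most cases through one or more RNA recognition motifs, a compact fold that contacts a few bases of single-stranded RNA. Many of them act in the nucleus on pre-mRNA, where they are parts of the spliceosome or bind beside splice sites and promote or repress the use of an exon. Others mark spliced mRNA, guide the methylation of adenosine in mRNA, hand RNA to the nuclear exosome for decay, help to build ribosomes, or bind the 3′UTR of mature mRNA and change its stability. The number in a symbol gives the order of naming and not relatedness, so the set is a mixture of several small protein families. The study is concerned with control of mRNA stability through an AUA-containing element of 3′UTRs to which it links RBMS3, and a last set of results describes that element in the mRNAs of the RBM-numbered genes. The study also knocked down *RBM4B*, a member of this set. It reports that the motif its model inferred for RBM4B was enriched among transcripts of changed stability, with a weaker effect than for RBMS3. Those data are not part of the table used here.

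The family was broadly expressed in MDA-MB-231 cells. The mean normalized count of the 37 members ranged from 46.0 for *RBM43* to 5195 for *RBMX*, with a median of 1211 against 364 for all genes. Above the median of all genes were 27 members, and 10 were below it. In the top 10% of all genes, which began at 2420, were 7 members: *RBMX*, *RBM39* (5111), *RBM25* (3781), *RBM5* (2984), *RBM3* (2847), *RBM12* (2635) and *RBM33* (2566). All 37 members are protein-coding, whereas the table also lists non-coding genes. Among protein-coding genes only, the median was 526, 24 members were above it and 5 were in the top 10%. In GENCODE 44 the human genome holds 5 more genes named in this way or as RBMX-like copies that have no row under either symbol or identifier, *RBM11*, *RBM44*, *RBM46*, *RBMXL2* and *RBMXL3*.

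A long mRNA yields more reads per molecule than a short one, so levels of different genes are compared from here on as the mean normalized count per kb of a representative transcript, which was the MANE Select transcript (the isoform that RefSeq and GENCODE both chose) for all 37 members. On this scale the median member was at 302 per kb against 137 per kb for all genes with an annotated length, and 24 of 37 members were above the median of all genes. The median of protein-coding genes was 152 per kb. *RBMX* (2582 per kb) stood 276-fold above *RBM20* (9.36 per kb), compared with a 113-fold range in the unscaled counts. In the top 10% on this scale were 2 members, *RBMX* and *RBM42*. The scale assumes that the representative transcript is the isoform in use. A long annotated 3′UTR that the cells do not use lowers the value, and one shorter than that in use raises it. Values per kb of transcript and of coding sequence are therefore plotted for every member, and the latter are printed for those whose rank moved most. The coding scale divides reads of the whole mRNA by coding length alone, so a long 3′UTR in use raises it. By 6 ranks or more, the order moved down on the coding scale for *RBM42* (from 2 to 8), *RBM6* (from 8 to 20), *RBM10* (from 9 to 18), *RBM19* (from 11 to 19), *RBM34* (from 12 to 21), *RBM15* (from 18 to 27) and *RBM4B* (from 24 to 30). By as much, it moved up for *RBM23*, *RBM28*, *RBM8A* and *RBM18*, the last from 33 to 23.

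**Figure D1:**
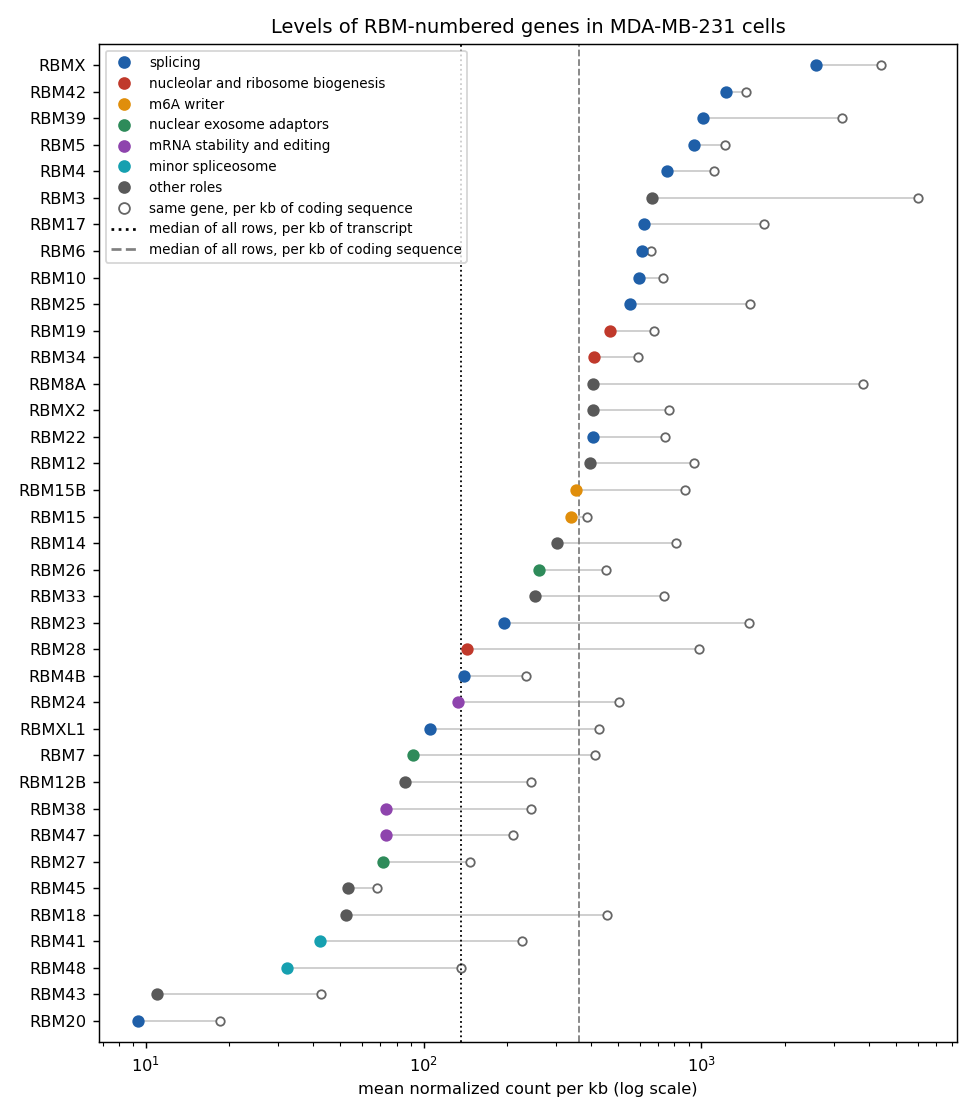
Mean normalized count per kb of the 37 RBM-numbered genes, on a log axis, ordered by the value per kb of transcript (filled points, coloured by role) with the value per kb of coding sequence beside it (open points). Each point is the authors' mean over libraries, so no error bars exist. *RBMX* heads the transcript scale at 2582 and *RBM3* the coding scale at 6045, and *RBM20* is last on both.

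The splicing members were spread over the whole order, with 9 of the 10 highest ranks and also the lowest. Of the 14 listed members on the splicing role list, 12 were above the median of all genes per kb of transcript, and the median of the 14 was 604 per kb. The other 23 members had a median of 144 per kb, with 12 of 23 above the median of all genes. The representative 3′UTRs of the splicing members were shorter, with a median of 820 bases against 3193 bases. Annotated 3′UTR length biases a level per kb of transcript only where the length in use differs, which was not measured. Per kb of coding sequence the medians were 1165 for the splicing members and 459 for the others, in the same order and closer in ratio. *RBM41* and *RBM48* of the minor spliceosome are on a list of their own and count among the others.

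*RBMX* (ENSG00000147274, chromosome X, 136848004 to 136880764 on the minus strand of GRCh38) encodes hnRNP G, a nuclear protein that binds nascent transcripts and takes part in splice site choice and chromosome segregation. Its mean normalized count of 5195 was above that of 96.4% of all genes, and its 2582 per kb above 95.9%. *RBM39* (ENSG00000131051, chromosome 20, 35701347 to 35742312, minus strand), a splicing factor related to U2AF65 and the protein degraded after treatment with aryl sulfonamide drugs such as indisulam, had nearly the same count, 5111. Its representative transcript is 5060 bases long against 2012 for *RBMX*, which placed it at rank 3, with 1010 per kb. *RBM42* (ENSG00000126254, chromosome 19, 35629030 to 35637686, plus strand), a component of the tri-snRNP, was at rank 2 with 1228 per kb from a count of 2078, and at rank 8 with 1443 per kb of coding sequence.

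The splicing regulators *RBM5*, *RBM6* and *RBM10* are related proteins that influence exons of apoptosis and Notch pathway genes and have been studied as tumor suppressors, *RBM10* as a gene recurrently mutated in lung adenocarcinoma. They stood at 939, 611 and 597 per kb of transcript, respectively. Per kb of coding sequence they stood at 1221, 659 and 726, which is rank 9 for *RBM5*, rank 20 for *RBM6* and rank 18 for *RBM10*. The 3′UTRs of *RBM6* and *RBM10* are 116 and 214 bases long. *RBM5* and *RBM6* lie side by side on chromosome 3 in the same orientation, and their annotated spans overlap by 11127 bases. *RBM17* (620 per kb), also known as SPF45 and active in 3′ splice site recognition, and *RBM25* (555 per kb), a protein that associates with the U1 snRNP, followed closely. *RBM22*, a core protein of the activated spliceosome that contacts the U6 snRNA, was lower, at 406 per kb. The neighbours in this stretch of the order cannot be separated, since no spread over libraries is known for any of them.

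Below these were the splicing members *RBM23* (195 per kb), *RBM4B* (139 per kb of transcript, 234 per kb of coding sequence), *RBMXL1* (106 per kb) and *RBM20* (9.36 per kb). *RBM20* is the splicing regulator of titin in heart and skeletal muscle, and its value per kb was above only 3.32% of all genes, with a mean normalized count of 68.3. *RBM23*, the closest relative of *RBM39* in the set, depends strongly on the length used. Its representative transcript has a 3′UTR of 8526 bases behind a coding sequence of 1317 bases, and per kb of coding sequence it rose from rank 22 to rank 7, at 1485.

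Members that act on spliced or nuclear RNA outside splicing were at varied levels. *RBM8A* encodes Y14, a core subunit of the exon junction complex that is left on mRNA after splicing, and stood at 407 per kb of transcript and at 3825 per kb of coding sequence, where it was at rank 3 of 37. Its coding sequence is 522 bases and its representative 3′UTR 4326 bases long. The m6A writer components *RBM15* and *RBM15B*, which bring the methyltransferase to its RNA substrates, were nearly equal per kb of transcript, at 338 and 353, but not per kb of coding sequence, at 389 and 875. Of the 3 members that link RNA to the nuclear exosome, *RBM26* stood at 260 per kb, *RBM7*, a subunit of the nuclear exosome targeting complex, at 91.9 per kb, and *RBM27* at 71.2 per kb.

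The nucleolar members *RBM19*, *RBM34* and *RBM28*, which take part in ribosome assembly or are related to yeast factors that do, were at 470, 412 and 144 per kb of transcript and at 678, 590.0 and 978 per kb of coding sequence. *RBM28* has the longest representative 3′UTR of the 37 members, 13112 bases of a transcript of 15507 bases, and on the coding scale it stood at rank 11, with 978, in place of rank 23. *RBM41* and *RBM48*, both proteins of the minor spliceosome that removes U12-type introns, were low on both scales, at 42.5 and 32.3 per kb of transcript. *RBM14*, a paraspeckle protein and transcriptional coactivator, was at 302 per kb.

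*RBM3*, whose protein accumulates in mild hypothermia and binds ribosomes and 3′UTRs, was at 662 per kb of transcript, at rank 6. Per kb of coding sequence it was at rank 1 of 37, at 6045, above *RBMX* at 4428. Its coding sequence is 471 bases, against a representative 3′UTR of 3721 bases, and any reads from that 3′UTR count toward the coding value. Of the mRNA stability and editing members, *RBM24* and *RBM38* encode related proteins that bind U-rich and GU-rich elements in 3′UTRs, and *RBM47* a cofactor of cytidine editing of *APOB* mRNA. *RBM24* was close to the median of all genes at 133 per kb of transcript, and at 504 per kb of coding sequence it was above the median of 363 on that scale. *RBM38* and *RBM47* were below the medians on both scales, at 73.2 and 73.0 per kb of transcript and 244 and 209.8 per kb of coding sequence.

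Among the members of other or less defined function, *RBM12* was at 396 per kb, *RBM33* at 252, *RBM12B* at 85.7, *RBM45* at 53.5, *RBM18* at 52.6 and *RBM43* at 11.01 per kb of transcript. *RBM18* was at 459 per kb of coding sequence, with a coding sequence of 570 bases and a 3′UTR of 4262 bases. *RBM33* binds the m6A demethylase ALKBH5. *RBM12* lies inside the span of *CPNE1* on chromosome 20 on the same strand and shares 16032 bases of it. *RBMX2* (407 per kb), a spliceosome-associated protein that was on none of the role lists, stood between *RBM8A* and *RBM22*, which were within 1 per kb of it.

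Beside the other large RNA-binding families of the nucleus, the RBM-numbered genes were at lower levels. The 11 listed SR protein genes, with symbol SRSF and a number, had a median of 1049 per kb. The 24 genes whose symbol starts with HNRNP had a median of 1522 per kb. Only 22 of these 24 are protein-coding, whereas all SRSF and RBM-numbered genes are. Per kb of coding sequence the medians were 678 for the RBM-numbered genes, 3433 for the SRSF genes and 3786 for the HNRNP genes. The ranges overlap: *RBMX* was above every SRSF gene (103 to 2251 per kb), whereas the HNRNP genes ranged from 56.4 to 4653 per kb. The study's own family is small, and its 3 listed members *RBMS2*, *RBMS1* and *RBMS3* were at 444, 116 and 32.1 per kb, the last a mean that mixes control and knockdown cells if it covers all groups. No test was made between families, since members are not replicates.

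**Figure D2:**
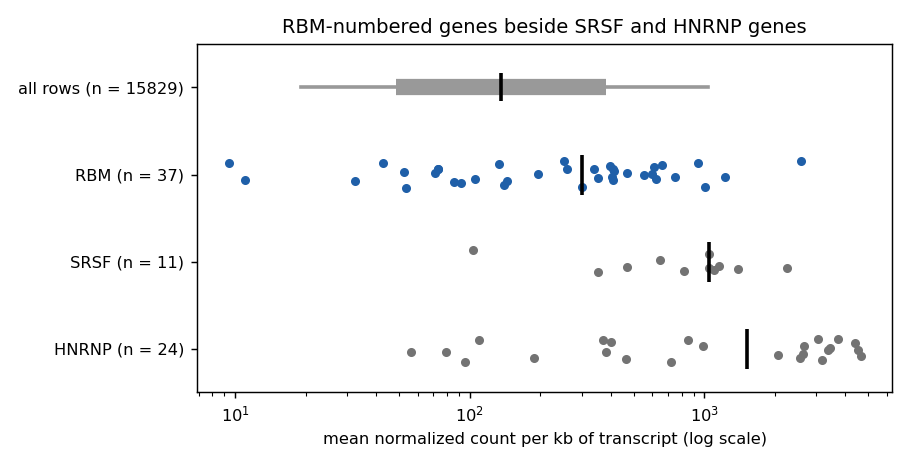
Mean normalized count per kb of transcript, on a log axis, for the 37 RBM-numbered, 11 SRSF and 24 HNRNP genes (1 point per gene, spread vertically for visibility only) beside all 15829 genes with an annotated length (thick bar, 25th to 75th percentile; thin line, 10th to 90th percentile). Black ticks mark medians, which were 137 for all genes, 302 for RBM, 1049 for SRSF and 1522 for HNRNP genes. Of the 24 HNRNP genes, 22 are protein-coding.

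Several members encode related proteins, and where their mRNAs also share sequence this bears on how their levels can be read. Among the 666 possible pairs of member proteins, 6 pairs had over 50% identical residues in a global alignment. *RBMX* and *RBMXL1* were the closest, with 95.4% identity over 390 aligned residues. *RBMXL1* is an X-to-autosome retrocopy of *RBMX* on chromosome 1, and 13498 bases of its annotated span overlap the kynurenine aminotransferase gene listed as *CCBL2*. The others were *RBM4* and *RBM4B* (91.1%), neighbours on chromosome 11 in opposite orientation, *RBM24* and *RBM38* (75.7%), *RBM23* and *RBM39* (69.1%), *RBM5* and *RBM10* (59.8%), and *RBM26* and *RBM27* (54.2%). *RBM15* and *RBM15B* fell just under the threshold, at 49.1%.

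In most of these pairs the members had unequal means. *RBMX* was 24.4-fold higher than *RBMXL1* per kb of transcript and 10.3-fold higher per kb of coding sequence. *RBM4* was 5.40-fold and 4.74-fold higher than *RBM4B* on the same scales, and *RBM26* was 3.65-fold and 3.09-fold higher than *RBM27*. *RBM24* was 1.82-fold higher than *RBM38*. *RBM23* was at 0.193 of the level of *RBM39* per kb of transcript and at 0.462 of it per kb of coding sequence. *RBM15* and *RBM15B* had a ratio of 0.959 per kb of transcript and of 0.445 per kb of coding sequence, so their near equality rests on the transcript lengths.

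To show how far reads could be divided between genes, each member's representative transcript was cut into all windows of 31 bases, and each window was looked for in every annotated transcript of every other gene. More than 10% of windows were shared in 11 members, and no window was shared in 8 members (*RBM6*, *RBM15B*, *RBM20*, *RBM24*, *RBM33*, *RBM38*, *RBM42* and *RBM45*). With windows of 75 bases, the length of 1 sequenced read, 6 members shared more than 10%. Window sharing was not computed for genes outside the set, so whether these counts are unusual is unknown. Salmon assigns such reads by estimating the abundance of all transcripts together, and how well that succeeded cannot be seen in a pooled mean.

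*RBM4* shared 96.9% of its windows with other genes. All of these lie in *RBM14-RBM4*, an annotated read-through gene that joins *RBM14* to *RBM4* and has a row of its own at a mean normalized count of 132, against 1211 for *RBM4*. With *RBM4B* it shared 16.9% of windows, in runs of up to 198 bases. *RBM34* shared 86.7% of its windows, and 75.2% lie in transcripts of *ARID4B*, a chromatin regulator gene that overlaps it on the same strand and was listed at 971, against 761 for *RBM34*. The division of reads between *RBM4* or *RBM34* and these overlapping genes is uncertain.

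*RBMX* shared 57.0% of its 31-base windows but 14.9% of its 75-base windows. Of its 31-base windows, 36.8% occur in *RBMXL1*, and others occur in processed pseudogenes, of which *RBMXP2* and *RBMXP5* were listed at 39.8 and 94.2. The longest run of bases that *RBMX* and *RBMXL1* have in common is 152 bases. *RBM27* shared 45.0% of its windows, with the read-through gene RP11-449H3.3 that spans its whole locus and was listed at 558, above the 466 of *RBM27* itself. The level of *RBM27* and its ratio to *RBM26* given above are therefore also uncertain. *RBM7* shared 19.9% of its windows, part of them with RP11-212D19.4 on the same strand, which was listed at 118. The other 6 members over 10% were *RBMXL1* (27.04%), *RBMX2* (20.5%), *RBM4B* (19.3%), *RBM3* (17.7%), *RBM8A* (15.4%) and *RBM5* (13.6%, with *RBM6*). Shared windows of *RBM3*, *RBM34*, *RBM8A* and *RBM7* were met in 4504, 2711, 2664 and 1052 other genes. Their sharing is thus not limited to copies or overlapping genes.

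**Figure D3:**
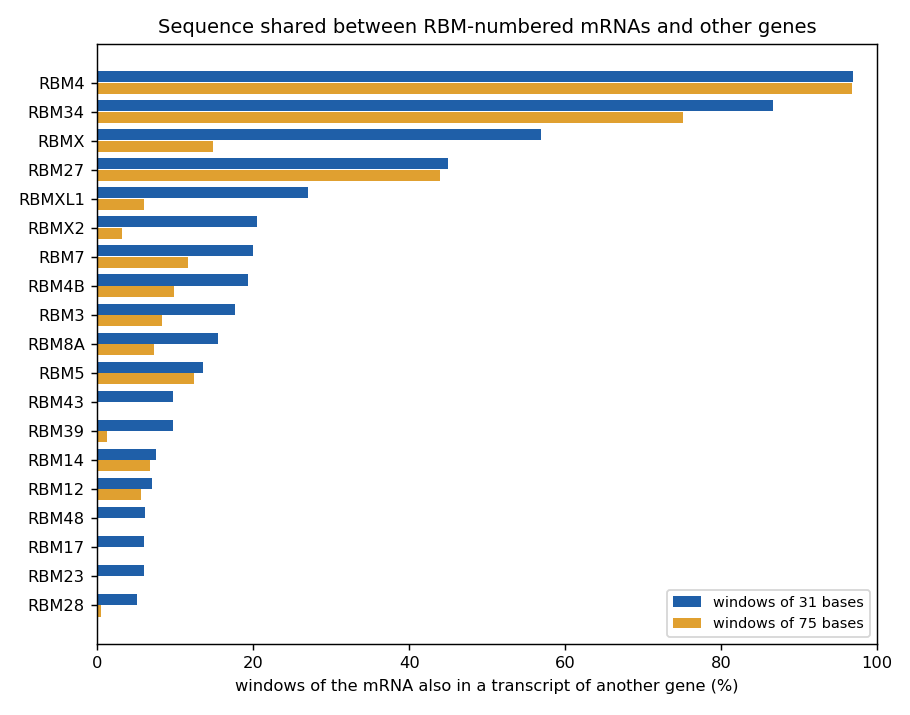
Share of each member's representative transcript, in percent of its windows, that also occurs in an annotated transcript of another gene, for windows of 31 bases (blue) and 75 bases (orange). The 19 members shown are those above 5% at 31 bases, with *RBM4* at 96.9% and *RBM34* at 86.7% at the top, and *RBMX* falling from 57.0% to 14.9% with the longer window.

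In the genome, 17 of 37 members overlap another listed gene, and 9 of these overlap one on the same strand, where the strand of a read cannot tell the genes apart. The share of all listed genes with such an overlap was not computed, so these counts describe the members only. Chromosome X carries 5 members, *RBM3*, *RBM10*, *RBMX*, *RBMX2* and *RBM41*. Splicing factors are known for isoforms that lead to nonsense-mediated decay of their own mRNA, so the annotated isoforms were counted. At least 1 transcript of that type is annotated for 14 of 37 members (37.8%), against 48.1% of protein-coding genes in the table, 15 of 22 protein-coding HNRNP genes (68.2%) and all 11 SRSF genes. A transcript with a retained intron is annotated for 19 members (51.4%), against 60.6% of protein-coding genes. *RBM39* has most, with 47 annotated transcripts, of which 16 are of the nonsense-mediated decay type and 16 retain an intron. These are counts in the annotation, and no isoform was measured here.

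The AUA-containing element that the study links to RBMS3 was searched in the 3′UTR of each representative transcript. Written in DNA letters, the pattern is A, G or T, then A or T, then ATA, then A or T, then A, which comprises 12 heptamers. At least 1 match was present in 34 of 37 members (91.9%), against 84.8% of the 12350 genes in the table with a 3′UTR. At least 3 matches were present in 22 members (59.5%), against 53.1%. The members without a match were *RBM42*, *RBM5* and *RBMX2*, with 3′UTRs of 131, 565 and 808 bases.

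The following stretches are read from GRCh38 in the sense of the mRNA from 5′ to 3′ with T for U. For the member with most matches, they are the first of the 30-base windows tied for most matches, and its last match. The others are the last matches of *RBM28*, of *RBM18* and of those among the 6 members of highest level per kb of transcript that have a match. Capitals mark the bases covered by a match.
RBM41, chrX:107067497-107067526, minus strand: aATATATATAAAttgtgggtcctggatggt
RBM41, chrX:107061900-107061928, minus strand: gtaatttttttAAATAAAtgttattttta
RBM28, chr7:128298407-128298435, minus strand: ggccgactgagAAATAAAgagaaatagta
RBM18, chr9:122237642-122237670, minus strand: attaatgcagaGAATAAAagcaacagatg
RBMX, chrX:136873468-136873496, minus strand: tacagaatactAAATAAAaagtttggcca
RBM39, chr20:35703227-35703255, minus strand: gatTTATATAtTAATATAttaaataaggt
RBM4, chr11:66646436-66646464, plus strand: tctttccggtgAAATAAAtggtttttcaa
RBM3, chrX:48581124-48581152, plus strand: gccattattctTAATAAAcatttctaata

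*RBM41* had the most matches, 41 in a 3′UTR of 5642 bases, or 7.27 per kb. By count it was above 99.2% of genes with a 3′UTR, by length of the 3′UTR above 93.5%, and by matches per kb above 90.8%. Its first window above begins at the first base after the stop codon and holds 3 overlapping matches in a run of A and T bases. The next members by count were *RBM28* (19 matches in 13112 bases, 1.45 per kb), *RBM12B* (16), *RBM18* (15) and *RBM23* (14). *RBM6* and *RBM45*, with 1 and 2 matches, had densities of 8.62 and 7.46 per kb in 3′UTRs of only 116 and 268 bases.

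The pattern is met more often in a long 3′UTR, and the 3′UTRs of the RBM-numbered genes are long, with a median of 2800 bases against 1378 for all genes. Their median A+U content was 60.4% against 57.9%. The median number of matches was 5 against 3, whereas the median density was 2.23 against 2.43 matches per kb. In the 20 members with a 3′UTR of 2251 bases or longer, all 20 had a match, against 97.9% of all such genes. Between 768 and 2250 bases 6 of 7 members had one, against 89.4%, and at 767 bases or shorter 8 of 10, against 67.2%. With so few members in each class these shares are close to those of all genes of like length.

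**Figure D4:**
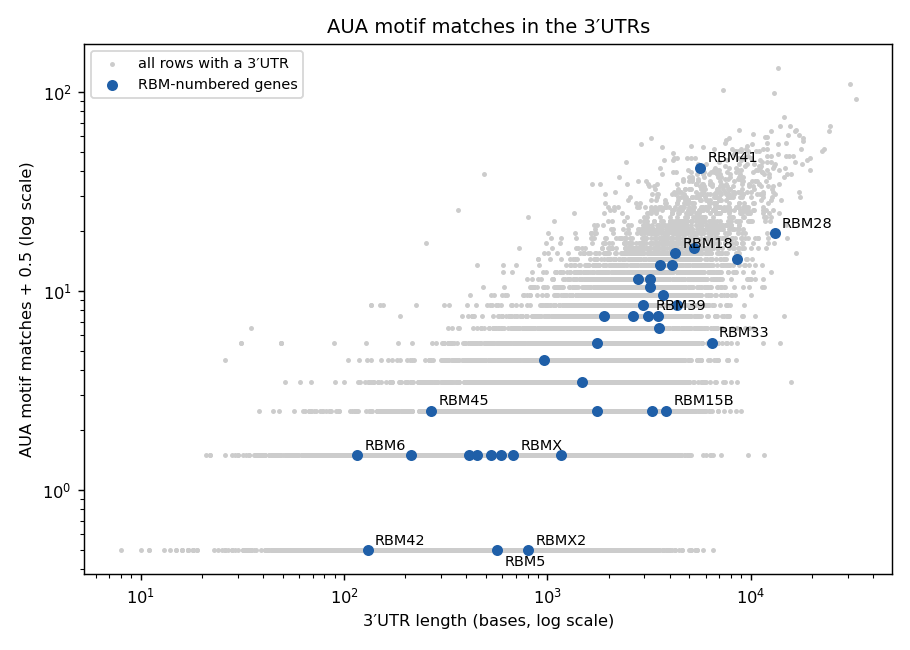
Matches of the AUA pattern in the 3′UTR of each gene, plotted with 0.5 added, against 3′UTR length in bases, both on log axes, for the 37 RBM-numbered genes (blue) and all 12350 genes with a 3′UTR (grey). *RBM41* lies near the upper edge at 41 matches, *RBM28* has the longest 3′UTR of the members at 13112 bases, and *RBM42*, *RBM5* and *RBMX2* lie on the lowest line with no match.

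The pattern contains, in part of its forms, the hexamer AATAAA, the main polyadenylation signal found close to the end of most mRNAs. Of the 255 matches in the members, 110 (43.1%) contain it, against 36.0% of 71509 matches in all genes. The commonest heptamers were AAATAAA (61 matches) and GAATAAA (29), followed by AAATATA and ATATATA (24 each). Within 40 bases of the annotated transcript end lie 25 of the 255 matches (9.80%), against 12.4% in all genes, and 24 of 37 members (64.9%) have a match there, against 58.1%. The single matches of *RBMX* and *RBM4* printed above are of this kind, and their printed windows end 7 and 4 bases before the transcript end. In *RBM39*, by contrast, the printed window with TTATATA and TAATATA ends 1880 bases before the transcript end, and neither match contains AATAAA. A match states that these letters are present, and binding of RBMS3 to any of these mRNAs was not measured in the table used here. The study mapped RBMS3 binding separately, by cross-linking and sequencing (CLIP-seq) of a FLAG-tagged protein in MDA-MB-231 cells. In its motif search of those sites, AATAAA was the most significant motif. The sites were not used here.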

How the data were processed

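The authors sequenced total RNA of 6 MDA-MB-231 libraries as paired ends from a stranded kit. The submitters' processing notes name Salmon, DESeq2 and hg38, without versions; the annotation behind this total RNA table is not given in the sources used here. The 1 deposited table has a signal column that holds the authors' mean normalized count of each gene over libraries. Its other columns hold the authors' own log2 fold change with its standard error, Wald statistic, p-value and adjusted p-value, and these, like the order of the rows, were not used. Depth per sample is unknown, and no interval or test could be computed.

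Ensembl identifiers were looked up in GENCODE release 44 (GRCh38), where 15829 of 15917 were found. Means were divided by transcript or coding length. Percentiles are among all listed genes. Coding sequences were translated and aligned globally with BLOSUM62 (Biopython 1.88), with identity as the share of aligned columns. Windows of 31 and 75 bases (numba 0.67.0) and the AUA pattern, overlapping matches included, were searched on the mRNA strand. Python 3.11.15, numpy 2.4.6, pandas 2.3.3 and matplotlib 3.10.9 were used, and the functions were tested on constructed data. All members could be named, and sites were shown for members outside chromosome 8 with the highest level or most matches. The members, role lists and comparison families were chosen with earlier results of these data known. Alternatives varied the symbol source, low-value filter, length scale, rows compared with, 3′UTR, number of matches and definition of identity.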

Additional observations from a re-analysis of the deposited data

How the results depend on the processing

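Of 12 alternatives over 5 counts, 9 left the count within 1.5 times its value and 3 moved it. The 7 members in the top 10% of all genes became 2 per kb of transcript and 4 per kb of coding sequence. The 34 members with the AUA pattern became 22 when at least 3 matches were asked for. With the longest annotated 3′UTR of each gene the count was 35, since *RBM5* then had 5 matches, and AATAAA in place of the pattern was present in 35. The number of members listed was 38 by GENCODE symbol, with the pseudogene *RBM8B* added. No paired analysis was possible because the table holds no values per library, and for the same reason leaving out a replicate and another normalization, pseudocount or low-count filter on libraries were not run. Levels rest on 1 mean per gene with unknown depth and spread, so neighbours in the order cannot be separated. The transcript scale depends on the annotated transcript being the one in use. The coding scale depends on the annotated coding sequence and is also raised by a long 3′UTR in use.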

Other observations

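Loci related to the RBM-numbered genes also have rows under clone-based names. The processed pseudogene *RBM8B* (GRCh38, chromosome 14, 60397757 to 60398281, plus strand), an intron-less copy of *RBM8A*, is listed as CTD-2568P8.3 with a mean normalized count of 568. Per kb of transcript this is 1082, above 90.5% of all genes and above the 407 of *RBM8A*, whose transcript length is mostly 3′UTR. The order is the opposite in the unscaled mean, 1997 for *RBM8A*, and against its 3825 per kb of coding sequence. *RBM8A* shares 6.68% of its 31-base windows with it, which is 326 windows of a transcript of 4909 bases. Since the pseudogene is far shorter, these windows make up a much larger part of it than of *RBM8A*. Its row is therefore not a level independent of *RBM8A*. How many of the pseudogene's reads came from *RBM8A* mRNA was not tested. The pseudogenes RBM22P2 and RBMS1P1 were listed at 50.5 and 42.9. The antisense RNA *RBM26-AS1* was listed at 60.4 against 1368 for *RBM26*, and *RBM33-DT*, which starts near *RBM33* on the opposite strand, at 115 against 2566 for *RBM33*.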
